A study of Mus musculus with 20 samples.

Results

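Connexins are the membrane proteins from which gap junctions are built. The 8 connexin genes described here were Gjb1, Gjb2, Gjb5, Gjb6, Gja1, Gja4, Gja5 and Gjc1, out of 55822 genes in the table of kidney transcripts. They were picked by symbol with their measured levels in control and puberulic acid kidneys already known, so that contrast is described for them without a test. Tests are given for pannexins, gap junction partner genes and neighbouring genes. The gene lists were likewise chosen with earlier results of these data known. The study gave 8-week-old male C57BL/6J mice 1 of 4 treatments once a day for 6 doses and took whole kidneys on day 7, with 5 samples in each of the 4 groups. The control group received PBS, and the puberulic acid group received 1 mg of puberulic acid, a tropolone made by Penicillium moulds, each day. The remaining groups received a normal or a toxic lot of the red yeast rice supplement Choleste-Help, and their columns, whose names did not show the lot, were not analysed here. No group carried a genetic change. The labels give the route once as oral and once as gavage or intraperitoneal injection, without saying which mouse had which. They number the samples within a group without stating that each came from its own mouse, so p-values measure the spread between these samples.

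In a gap junction, connexin subunits of one cell form a hexameric channel, the connexon, which docks with a connexon of the neighbouring cell through its extracellular loops and lets ions and small metabolites pass from cytoplasm to cytoplasm. Which connexins a cell makes decides which neighbours it can couple to. In the kidney, Cx32 (Gjb1) and Cx26 (Gjb2) are known from tubule epithelium. Cx37 (Gja4) and Cx40 (Gja5) belong to vascular endothelium, Cx40 also to renin-producing cells, Cx45 (Gjc1) to smooth muscle and renin cells, and Cx43 (Gja1) to many cell types. Cx31.1 (Gjb5) is best known from the epidermis, and Cx30 (Gjb6) from the inner ear, the skin and the distal nephron.

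The docking loops carry the signature that defines the family. In the first extracellular loop, 3 cysteines stand at fixed spacing, and they form disulfide bridges with cysteines of the other loop. The 36 coding bases of that stretch are shown for the 8 listed connexins, whose subunits dock through these loops, with the 3 cysteine codons in capitals. They were read from GENCODE mouse transcripts, M21 release, as part of the longest open reading frame.
Gjb1: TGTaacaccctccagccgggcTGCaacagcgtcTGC
Gjb2: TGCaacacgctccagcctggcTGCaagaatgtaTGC
Gjb6: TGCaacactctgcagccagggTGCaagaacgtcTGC
Gjb5: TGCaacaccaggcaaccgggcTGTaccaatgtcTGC
Gja1: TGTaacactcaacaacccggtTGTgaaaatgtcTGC
Gja4: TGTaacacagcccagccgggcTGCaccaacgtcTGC
Gja5: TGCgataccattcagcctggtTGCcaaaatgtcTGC
Gjc1: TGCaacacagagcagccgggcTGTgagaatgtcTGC
The signature was found in 15 of the 16 connexin genes examined. Over whole proteins, identity between 2 of them ran from 23.8% to 77.0% across 120 pairs. The highest value belonged to Gjb2 and Gjb6, and identity was 63.6% for Gjb1 and Gjb2. Reads of such relatives could be exchanged only where sequence is shared. No pair of the Gjb genes shared a run of 31 bases. In 3 other pairs such runs were shared on the same strand, among them Gja1 with Gja5, which had 3.

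The tubule connexins dominated the control kidney. Levels are given as CPM, counts scaled to a common library size by TMM, which aligns libraries by the bulk of their genes. Comparisons between genes are made per kilobase of the longest coding transcript. Gjb2 led at 50.6 ± 8.0 CPM per kb (SD, n = 5) and Gjb1 followed at 35.3 ± 4.00, with ranges that did not overlap. Gja4 came next at 2.49 ± 0.868 CPM per kb, below Gjb1 in every kidney, and its range overlapped that of Gja1 at 1.65 ± 0.60. Gjc1 at 1.5 CPM per kb and Gja5 at 1.47 CPM per kb could not be ordered beyond their spread. Gjb6 and Gjb5 came to 0.136 and 0.033 CPM per kb.

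Gjb2 and Gjb1 were both lower after puberulic acid. Gjb2 was measured at 123.1, 146.6, 133.6, 102.4 and 103.1 CPM in the 5 control kidneys and at 33.1, 36.3, 35.5, 39.2 and 35.0 CPM in the 5 puberulic acid kidneys. The groups lay far apart, and the puberulic acid kidneys were close to one another. The mean went from 121.8 ± 19.2 CPM to 35.8 ± 2.23 CPM (SD, n = 5 each), 3.40-fold lower, with a log2 fold change of -1.76 (SE 0.11). Gjb1 was measured at 44.8, 60.4, 57.5, 57.8 and 59.2 CPM in controls and at 27.8, 17.6, 18, 17.4 and 16.9 CPM after puberulic acid. Here too no value overlapped, although control replicate 1 was low and puberulic acid replicate 1 was high within their groups. Mean Gjb1 went from 55.9 ± 6.34 CPM to 19.5 ± 4.64 CPM, 2.87-fold lower, with a log2 fold change of -1.52 (SE 0.15) and of -1.70 without puberulic acid replicate 1.

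**Figure D1:**
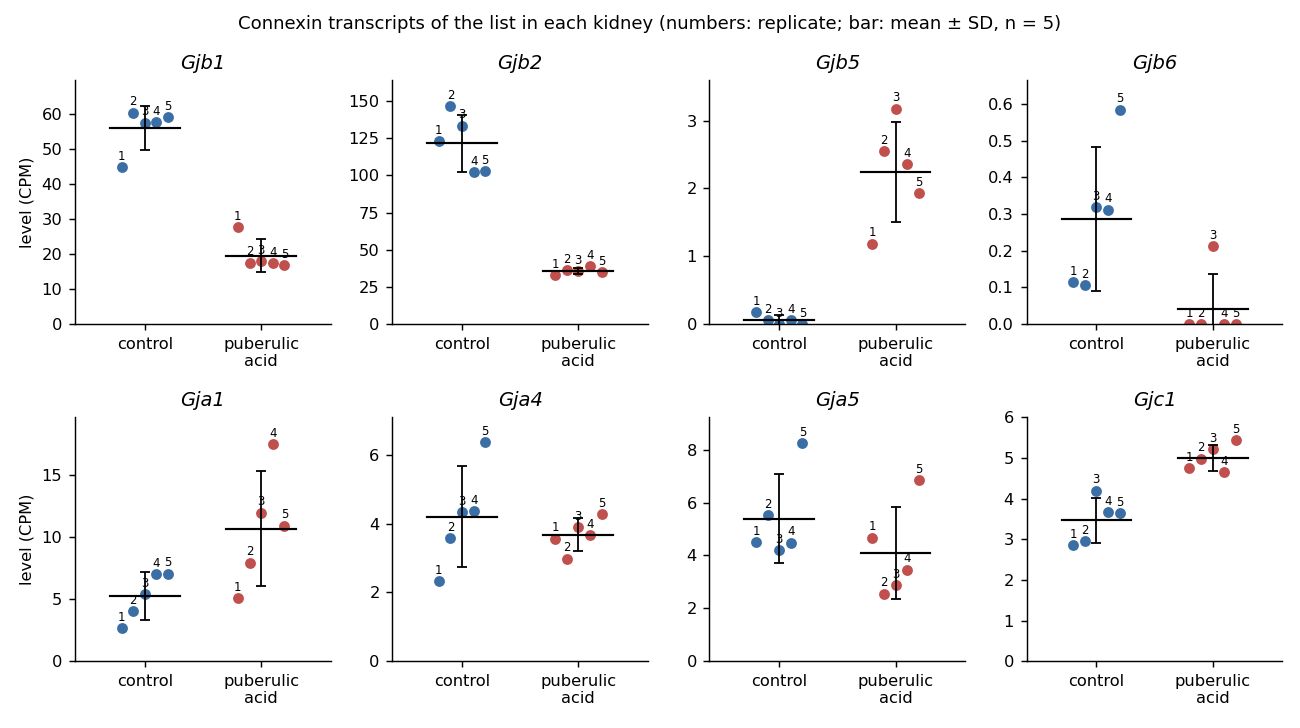
Level of each of the 8 listed connexins in CPM (vertical axis, from 0, scaled separately per gene) in the 5 control and 5 puberulic acid kidneys, with replicate numbers beside the points and bars for the mean ± SD. Gjb2 and Gjb1 sit lower and Gjb5 and Gjc1 higher in every puberulic acid kidney, while the groups overlap for Gjb6, Gja1, Gja4 and Gja5.

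Of the 8 listed connexins, 2 were below all controls in every puberulic acid kidney, in a data set where 24.0% of the 16266 genes tested were, and 2 (Gjb5 and Gjc1) were above all controls, against 26.1% of genes tested. These members were chosen on the same contrast, so nothing is read from the counts. The other 4 overlapped between groups.

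Among tubule markers, the proximal list was lower beside Gjb2 and Gjb1, later segments were mixed and the injury list was higher. The summed level of 8 proximal tubule markers was 31970 to 42990 CPM in controls and 5082 to 6816 CPM after puberulic acid, and 8 of 8 fell in edgeR's quasi-likelihood test, where 31.1% of all genes tested fell and 34.2% rose. The most abundant of them, Kap, the kidney androgen-regulated protein, and Slc34a1, the phosphate transporter, fell with log2 fold changes of -2.48 (SE 0.15, adjusted p = 7.23e-08) and -5.36 (SE 0.55, adjusted p = 4.86e-06). Most of the proximal sum was Kap, at 20070 to 31270 CPM in controls and 4679 to 5847 CPM after puberulic acid. Puberulic acid replicate 1 had the highest Gjb1 of its group but, at 33.1 CPM, the lowest Gjb2. It also had the highest sum of proximal markers of its group. Its Slc34a1 was 319.1 CPM against at most 85.4 CPM in the other 4. Without this kidney the log2 fold change of Slc34a1 was -6.20. Among 8 markers of later segments, from the loop of Henle to the collecting duct, 6 fell and 2 were not called, while 2 fell, 1 rose and 5 were not called with scaling by total counts. Slc12a1, the sodium, potassium and chloride carrier of the loop of Henle, fell (log2 fold change -1.20, adjusted p = 0.0333) but lost its call with total counts (0.18), in DESeq2 (0.0524) and in several fits that left out 1 kidney, such as control replicate 1 (0.0663). It was highest after puberulic acid in replicate 1, at 779.4 CPM against at most 323.6 CPM, and its log2 fold change was -1.89 without that kidney and -1.50 with the replicate number as a block. Umod, or uromodulin, the most abundant, was not called (0.06, adjusted p = 0.782) and was called higher with total counts (0.57, adjusted p = 0.0119). The sum of the 8 ran from 4262 to 6201 CPM in controls and from 3291 to 6583 CPM after puberulic acid, where replicate 1 was again the highest. All 6 markers of injured tubule rose, from a sum of 575.3 to 1007 CPM to one of 13290 to 21520 CPM. The most abundant over the 10 kidneys, Spp1, or osteopontin, and Havcr1, the injury marker Kim-1, had log2 fold changes of 4.48 (SE 0.21, adjusted p = 1.67e-08) and 9.26 (SE 0.16, adjusted p = 1.53e-11). Most of the injury sum was Spp1, at 561.0 to 992.6 CPM in controls and 11690 to 18690 CPM after puberulic acid. In whole kidney, fewer cells of a type and less RNA per cell cannot be told apart, and the part of either in the lower Gjb1 and Gjb2 was not tested.

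Gjb5 was near the limit of detection in controls and present in every puberulic acid kidney. The control libraries held 0 to 3 Gjb5 counts, or 0.171, 0.053, 0, 0.062 and 0 CPM, and the puberulic acid libraries held 32 to 75 counts, or 1.19, 2.56, 3.18, 2.36 and 1.93 CPM. No puberulic acid kidney came near the controls. Against a floor of 3 counts per control library, which averaged 0.18 CPM, the puberulic acid mean of 2.24 ± 0.741 CPM (SD, n = 5) was at least 12.4-fold higher.

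The genes that lie next to the listed connexins were examined. On chromosome 14, Gja3, Gjb2, Gjb6 and Cryl1 follow one another. Cryl1, the crystallin lambda gene whose product is an L-gulonate dehydrogenase, lies next to Gjb6 and fell from 320.3 ± 35.5 CPM to 64.8 ± 13.7 CPM, at an adjusted p of 1.05e-07 (log2 fold change -2.31, SE 0.14). Gja3, at the other end of the row and next to Gjb2, was below the filter on low counts and overlapped between the groups. CK137956, next to Gjb5 on chromosome 4, had no count in any library.

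**Figure D2:**
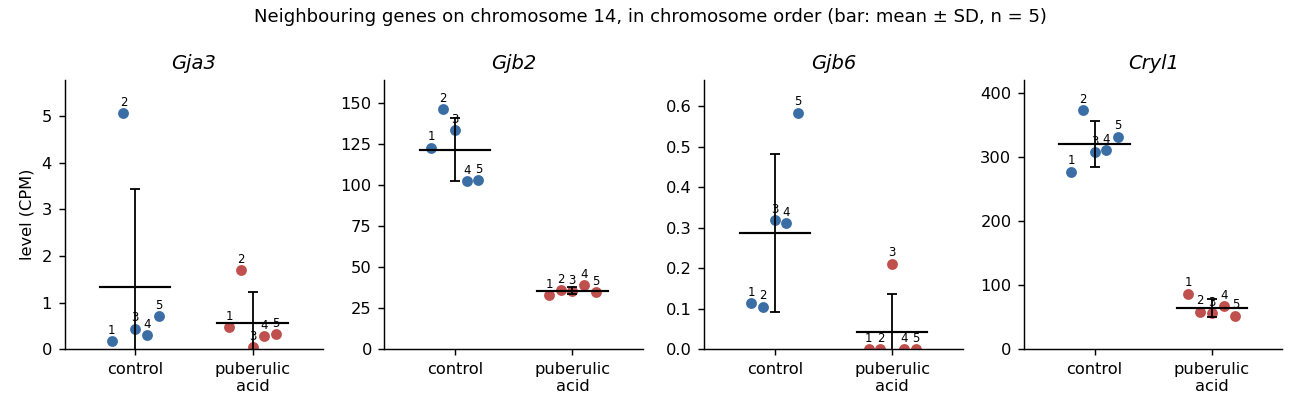
Level in CPM (vertical axis, from 0, scaled separately per gene) of 4 neighbouring genes in their order on chromosome 14, for 5 control and 5 puberulic acid kidneys with bars for the mean ± SD. Gjb2 and Cryl1 are lower in every puberulic acid kidney, while Gja3 and Gjb6 are low and overlap.

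The remaining neighbours of the listed connexins went in both directions. Acp6, a lysophosphatidic acid phosphatase gene next to Gja5, fell from 64.6 ± 5.25 CPM to 16.4 ± 2.99 CPM (log2 fold change -1.98, SE 0.12, adjusted p = 1.06e-07). Zmym3, a zinc finger gene next to Gjb1, fell from 26.5 ± 2.19 CPM to 16.1 ± 1.84 CPM (log2 fold change -0.72, SE 0.10, adjusted p = 6.36e-05), a call lost with scaling by total counts (-0.21, adjusted p = 0.0796). Msl3l2, next to Gja1, rose from 0.777 ± 0.206 CPM to 2.15 ± 0.365 CPM (log2 fold change 1.47, SE 0.26, adjusted p = 3.05e-04). Hsf2, a heat shock factor on the other side of Gja1, and Adam11, next to Gjc1, did not pass, with log2 fold changes of -0.14 (adjusted p = 0.321) and 0.43 (adjusted p = 0.29), but both were called higher with scaling by total counts (0.37 and 0.93). Nlgn3 beside Gjb1 and Higd1b beside Gjc1 were below the filter.

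None of the 8 further connexin genes examined passed the filter on low counts. Gja3, a lens connexin, reached 5.06 CPM in control replicate 2 and 1.70 CPM in puberulic acid replicate 2 against at most 0.714 CPM in the other kidneys. The neuronal Gjd2 had no count in any library, and 5 of these connexins, Gjd2 included, had at most 3 counts in every library.

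Markers of stratified squamous epithelium, where Gjb5 is normally found, were examined beside it. The sum of 8 such markers was 0.810 to 1.69 CPM in controls and 41.3 to 47.7 CPM after puberulic acid. Of the 4 markers that passed the filter, 3 rose: Krt5, a basal keratin, from 0.278 ± 0.151 CPM to 19.5 ± 3.75 CPM (adjusted p = 1.55e-08), Sprr1b, a cornified envelope protein, from 0 in all controls to 18.5 ± 3.44 CPM (adjusted p = 1.47e-07), and Ivl, or involucrin, to 3.81 ± 0.713 CPM (adjusted p = 1.51e-07). These 3 held at most 8 counts in any control library. They passed the filter through the puberulic acid libraries, so nothing is read from 3 of 4. Trp63, the basal cell transcription factor, did not pass (log2 fold change 0.62, SE 0.41, adjusted p = 0.199), was called higher with scaling by total counts (adjusted p = 0.0267) and stayed at or below 2.03 CPM. The defining keratins Krt14, Krt6a and Krt13 and the desmosomal Dsg3 reached at most 0.341, 0.254, 0.163 and 0.042 CPM in any kidney. None of the 5 urothelium markers was called in edgeR, although Upk1b was called lower without puberulic acid replicate 3 (adjusted p = 0.0451), and their sum ran from 3.25 to 11 CPM in controls and from 1.30 to 36.3 CPM after puberulic acid. Puberulic acid replicate 3 had that highest urothelial sum, and it also had the highest Gjb5 of its group, at 3.18 CPM against 2.56 CPM in the next kidney. In puberulic acid replicate 4, with the lowest urothelial sum, Gjb5 was 2.36 CPM. Their part in the Gjb5 values was not tested.

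After puberulic acid the tubule connexins still led among those examined. Gjb2 at 14.9 ± 0.925 CPM per kb and Gjb1 at 12.3 ± 2.93 CPM per kb had overlapping ranges. Gja1 followed at 3.36 ± 1.46 CPM per kb, below Gjb1 in every kidney, and overlapped Gja4. Gja4 at 2.18 CPM per kb and Gjc1 at 2.16 CPM per kb did not differ beyond their spread. Gjb5 at 1.30 ± 0.431 CPM per kb lay below the range of Gjc1 and overlapped Gja5 at 1.11 ± 0.475.

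Gja1 was higher on average, with groups that touched. It was measured at 2.68, 4.06, 5.41, 7.04 and 7.08 CPM in controls and at 5.12, 7.97, 12.0, 17.5 and 10.9 CPM after puberulic acid. Puberulic acid replicate 1 lay inside the control range and the other 4 lay above it, while with scaling by total counts all 5 lay above it. The mean was 5.25 ± 1.91 CPM in controls and 10.7 ± 4.64 CPM after puberulic acid, 2.04-fold higher, with a log2 fold change of 1.03 (SE 0.34). Without puberulic acid replicate 4, the highest kidney, the log2 fold change was 0.74.

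Markers of stromal cells were examined beside Gja1. The sum of 8 mural and smooth muscle markers was 125.5, 155.5, 185.8, 164.4 and 247.8 CPM in controls and 297.7, 376.3, 714.8, 779.0 and 820.3 CPM after puberulic acid, so the puberulic acid kidney with the lowest Gja1 also had the lowest mural sum. The kidney with the highest mural and fibroblast sums, replicate 5, did not have the highest Gja1, which was in replicate 4. Of the 8 mural markers 4 rose and 1 fell, where 34.2% of all genes tested rose and 31.1% fell. With scaling by total counts 6 rose and the fall was no longer called. The most abundant over the 10 kidneys, Tagln, or transgelin, and Acta2, smooth muscle actin, rose with log2 fold changes of 3.21 (SE 0.37, adjusted p = 1.3e-05) and 2.77 (SE 0.39, adjusted p = 6.53e-05). Rgs5, a pericyte gene and the most abundant of the list in controls, was the one that fell (log2 fold change -0.72, SE 0.26, adjusted p = 0.0273). Among 5 fibroblast markers 4 rose, and their sum went from 90.7 to 128.4 CPM in controls to 360.4 to 1346 CPM after puberulic acid. Among 6 macrophage markers 4 rose, from a sum of 86.1 to 208.1 CPM to one of 187.7 to 650.6 CPM. Their part in the Gja1 values was not tested.

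Gjc1, the gene of Cx45, was higher in every puberulic acid kidney by a small step. Control kidneys gave 2.85, 2.95, 4.20, 3.68 and 3.64 CPM and puberulic acid kidneys 4.75, 4.98, 5.21, 4.65 and 5.43 CPM. The lowest puberulic acid value was above the highest control value. The mean went from 3.46 ± 0.559 CPM to 5.00 ± 0.323 CPM, 1.44-fold higher, with a log2 fold change of 0.53 (SE 0.16) that was 1.04 with scaling by total counts.

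The endothelial connexins Gja4 and Gja5 overlapped between the groups. Gja4 was measured at 2.34, 3.59, 4.33, 4.36 and 6.36 CPM in controls and at 3.56, 2.98, 3.90, 3.67 and 4.27 CPM after puberulic acid. All puberulic acid values lay inside the control range. Mean Gja4 was 4.20 ± 1.46 CPM and 3.68 ± 0.475 CPM, a log2 fold change of -0.19 (SE 0.24) that turned to 0.32 with scaling by total counts. Gja5 was measured at 4.51, 5.54, 4.20, 4.49 and 8.25 CPM in controls and at 4.68, 2.56, 2.88, 3.46 and 6.84 CPM after puberulic acid. Puberulic acid replicates 2, 3 and 4 were below all controls, and replicates 1 and 5 were within the control range. Mean Gja5 was 5.40 ± 1.67 CPM and 4.08 ± 1.74 CPM, a log2 fold change of -0.40 (SE 0.29) that turned to 0.13 with scaling by total counts.

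Endothelial marker signal also differed from kidney to kidney. The sum of 10 endothelial markers was 373.7, 423.7, 521.3, 541.2 and 597.9 CPM in controls, the same order as Gja4 but not Gja5 in those kidneys, and 454.9, 213.2, 305.6, 382.8 and 492.8 CPM after puberulic acid. Puberulic acid replicate 2 had the lowest and replicate 5 the highest endothelial sum, Gja4 and Gja5 of its group, while the other 3 did not follow the order of the sum for Gja4. Of the 10 endothelial markers, 3 fell, close to the 31.1% of all genes tested, and 7 were not called, and the 3 calls were lost with scaling by total counts. The most abundant, Plvap of fenestrated endothelium and Emcn, or endomucin, were among those not called (adjusted p = 0.23 and 0.0597), although Emcn passed with the replicate number as a block (0.0159) and in DESeq2 (0.0466). Among 6 arterial markers Efnb2 rose and 2, Sox17 and Cldn5, fell, calls that both lost with scaling by total counts (adjusted p = 0.699 and 0.787). With that scaling 2 of the 6 were called higher. Fbln5, the most abundant of the 6, went from 97.4 ± 28.5 CPM to 60.7 ± 23.9 CPM and was not called (adjusted p = 0.057), but was called lower with the replicate number as a block (0.0381), in DESeq2 (0.0342) and without control replicate 1 (0.0211). Ren1, the renin gene of the cells that also carry Cx40, was measured at 51.3, 57.6, 88.0, 63.8 and 235.8 CPM in controls and at 63.2, 4.73, 22.2, 18.1 and 63.3 CPM after puberulic acid, and was not called (adjusted p = 0.0501). Ren1 lay at the threshold: it passed with the replicate number as a block (0.0123), with RLE factors (0.048), without a filter (0.0396) and when some kidneys were left out, such as puberulic acid replicate 1 (adjusted p = 0.025 in edgeR). It did not pass in DESeq2, with total counts (log2 fold change -1.0 against -1.53) or without control replicate 5, its highest kidney (-0.93). The 3 puberulic acid kidneys with the least Ren1 were the 3 with the least Gja5. Akr1b7, the other renin cell marker, was not called (log2 fold change -0.01, adjusted p = 0.979) and was highest after puberulic acid in replicate 3, at 5.08 CPM, one of those 3 kidneys. Neither relation was tested.

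**Figure D3:**
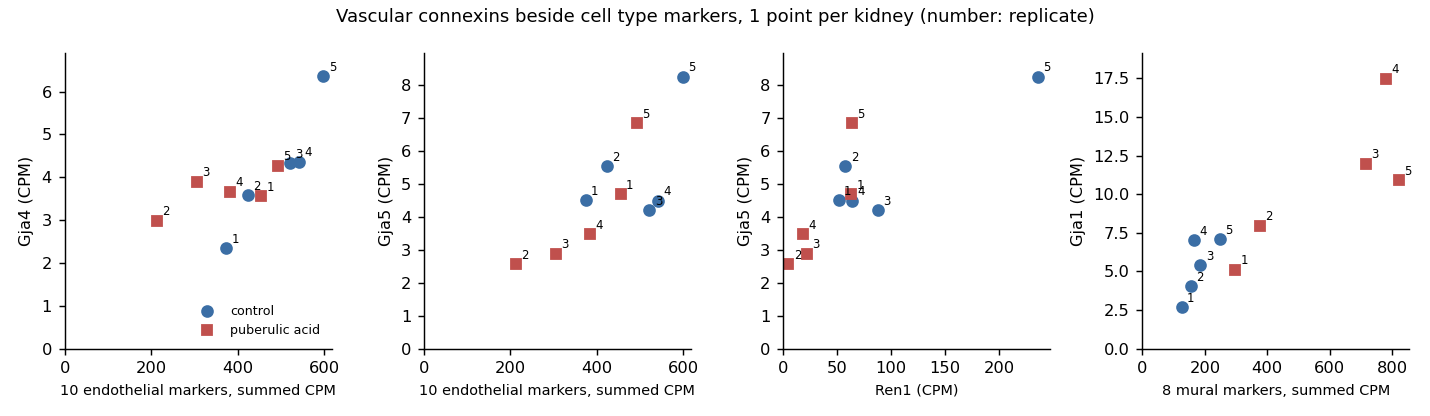
Level of Gja4, Gja5 and Gja1 in CPM (vertical axes, from 0) against the summed CPM of 10 endothelial markers, Ren1 CPM or the summed CPM of 8 mural markers (horizontal axes), with 1 point per kidney labelled by replicate, circles for control and squares for puberulic acid. In both groups replicate 5 has the most endothelial marker signal and the most Gja4 and Gja5, and the puberulic acid kidney with the least mural signal has the least Gja1 of its group.

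Gjb6 was close to the floor in all kidneys and did not pass the filter, so 7 of the 8 listed genes had a fitted value. It had 2 to 9 counts in the control libraries, or 0.114, 0.105, 0.318, 0.312 and 0.584 CPM. After puberulic acid replicate 3 had 0.212 CPM from 5 counts and the other 4 libraries had none. A zero at this depth allows up to 3 counts, or 0.0964 to 0.128 CPM in the puberulic acid libraries, so the overlapping values could not be separated further.

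**Figure D4:**
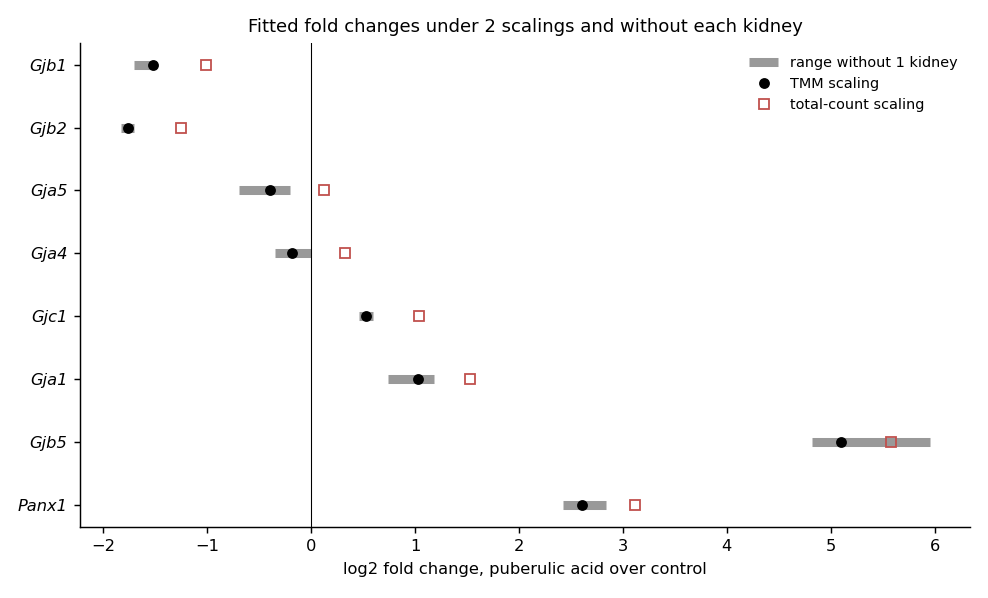
Fitted log2 fold change of puberulic acid over control (horizontal axis) for 7 connexins and Panx1 with TMM scaling (filled circles) and total-count scaling (open squares), with grey bars for the range over fits that leave out 1 kidney. Gjb1 and Gjb2 stay below 0 and Gjb5, Gja1, Gjc1 and Panx1 above 0 under both scalings, while Gja4 and Gja5 change sign with the shift that total-count scaling gives all genes; the position of Gjb5 depends on the prior count because its controls are near 0.

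Pannexins form related membrane channels that do not usually dock between cells and that release ATP. Panx1 was measured at 1.83, 0.949, 1.21, 1.18 and 0.519 CPM in controls and at 7.09, 4.22, 7.29, 8.52 and 7.81 CPM after puberulic acid. All puberulic acid kidneys exceeded all controls. Its mean rose 6.14-fold, from 1.14 ± 0.474 CPM to 6.98 ± 1.64 CPM, at an adjusted p of 1.25e-05 in edgeR (log2 fold change 2.61, SE 0.30). Panx2 had at most 2 counts in any library, and Panx3 had none.

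Among the listed genes whose proteins bind, anchor or phosphorylate connexins, most had higher transcript levels. Of 16 such genes 15 passed the filter. In edgeR's test 12 rose, where 34.2% of all genes tested did, 0 fell, where 31.1% did, and 3 were not called. In 10 of the 15 every puberulic acid kidney was above all controls, as in 26.1% of all genes tested. The median log2 fold change was 0.42, against 0.05 for all genes tested. The partner list was chosen with earlier results of these data known, so nothing is read from these counts or this median. Cdh2, or N-cadherin, rose from 9.36 ± 1.30 CPM to 23.6 ± 4.18 CPM (log2 fold change 1.34, SE 0.14, adjusted p = 6.93e-06). The kinases Mapk7, or ERK5, and Src, both known to phosphorylate Cx43, rose with log2 fold changes of 1.32 (SE 0.11, adjusted p = 1.22e-06) and 0.79 (SE 0.10, adjusted p = 2.35e-05). Prkca, another kinase of Cx43, rose from 16.4 ± 3.68 CPM to 26.6 ± 4.33 CPM (log2 fold change 0.69, SE 0.16, adjusted p = 0.00238). Ctnnb1, Cav1 and Tsg101 were not called, with log2 fold changes of -0.07, -0.29 and 0.07 (adjusted p = 0.49, 0.123 and 0.483), and Ctnnb1 and Tsg101 were called higher with scaling by total counts (0.44 and 0.58). Ccn3, which binds Cx43, was below the filter. Cdh1, or E-cadherin, and the ubiquitin ligase Nedd4, at log2 fold changes of 0.25 and 0.24, lost their calls when no filter on low counts was used (adjusted p = 0.0642 and 0.0697) and in several fits that left out 1 kidney, such as control replicate 3 (0.0694 and 0.0569).

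The promoters of the connexins that moved most were read where a RefSeq table for GRCm38.p6 held them, as the 250 bases before the transcription start. These motifs were searched on both strands: AP-1 (TGANTCA), the GC box (GGGCGG), the TEAD element (GGAATG) and an HNF1 half-site (GTTAAT). They occurred in 6.75%, 32.7%, 12.6% and 6.43% of 32851 such windows. The windows of the lowered pair, with GC boxes in capitals, and of Gjb5, which held none of the motifs, are shown 5′ to 3′ on the strand of the gene. They lie at chrX:101383482-101383731 on the plus strand for Gjb1, at chr14:57104703-57104952 on the minus strand for Gjb2 and at chr4:127358165-127358414 on the minus strand for Gjb5.
Gjb1: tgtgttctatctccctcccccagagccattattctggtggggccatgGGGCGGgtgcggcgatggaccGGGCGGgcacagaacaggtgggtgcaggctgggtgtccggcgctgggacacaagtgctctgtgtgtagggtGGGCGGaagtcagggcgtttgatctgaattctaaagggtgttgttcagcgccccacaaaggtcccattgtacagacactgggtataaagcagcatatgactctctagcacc
Gjb2: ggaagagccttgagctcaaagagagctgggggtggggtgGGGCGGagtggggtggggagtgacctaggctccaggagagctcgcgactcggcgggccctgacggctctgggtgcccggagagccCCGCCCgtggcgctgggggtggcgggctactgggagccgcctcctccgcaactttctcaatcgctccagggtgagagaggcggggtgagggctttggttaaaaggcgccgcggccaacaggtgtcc
Gjb5: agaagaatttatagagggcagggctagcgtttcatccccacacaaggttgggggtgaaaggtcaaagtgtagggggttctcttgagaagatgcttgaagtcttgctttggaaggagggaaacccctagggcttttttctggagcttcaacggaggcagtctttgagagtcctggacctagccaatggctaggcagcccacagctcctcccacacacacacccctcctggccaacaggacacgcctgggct
The Gjb1 window shown held 3 GC boxes and that of Gjb2 held 2. Gjb1 has 4 listed starts, and this window was chosen because it was the one of them with GC boxes. The others held none, and one of them, at chrX:101376985-101377234, held 1 TEAD and 1 HNF1 match instead. The promoters of Gja4 and Gja5 held 1 GC box each, and that of Gjb6 none of the motifs. Gja1 had 1 AP-1 match, which began 19 bases before the start. Gjc1 was not in the table. A match describes letters only.

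Genes with the most similar pattern over the 10 kidneys were found by the root mean square difference of log2(CPM + 1), each gene centred on its own mean, among tested genes with a symbol. Gjb1 was nearest to Idh3g, a subunit of mitochondrial isocitrate dehydrogenase (0.068), and Etfb, an electron transfer flavoprotein subunit (0.070). Gjb2 was nearest to Ctnna2 (0.106) and Zbtb11os1 (0.115), and Gjb5 to Rnf225 (0.110) and Megf11 (0.134). Gja1 was nearest to the endocytic receptor Lrp1 (0.178) and Gpsm3 (0.200). Gja4 was nearest to Marveld1 (0.114) and the integrin Itgb5 (0.115), Gja5 to Zfp366 (0.185) and Clec1a (0.207), and Gjc1 to Ruvbl1 (0.080) and Zfp747 (0.092). With a pseudocount of 0.1 CPM in place of 1, 5 of the 14 pairs remained: Gjb1 with Idh3g, Gja1 with Lrp1 and Gpsm3, Gja4 with Marveld1 and Gja5 with Zfp366. Low genes are compressed on the scale with the larger pseudocount, which bears on Gjb5 and Gjb2 neighbours such as Ctnna2 at 2.37 CPM in controls and 0.115 CPM after puberulic acid.

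The 10 libraries held 18409940 to 24705953 counts. Mitochondrially encoded transcripts took 18.8% to 22.2% of control counts and 10.5% to 13.8% of puberulic acid counts, and TMM factors were 0.827 to 0.848 and 1.17 to 1.26. Of 16266 genes tested, 5564 rose and 5058 fell, so 52.4% of calls were higher with TMM scaling and 78.4% with scaling by total counts, which moved the median log2 fold change of all genes from 0.05 to 0.56. Relative to that median, Gjb1, Gjb2, Gja4 and Gja5 were lower and Gjb5, Gja1 and Gjc1 higher. The change of scaling moves all genes nearly alike, so the same order under both scalings was fixed in advance. Gja4 was at -0.19 (SE 0.24) with TMM, with all its puberulic acid values inside the control range. Markers of other cells were neutrophils (1 of the 2 that passed the filter rose, of 5 listed, sum 0.527 to 1.37 CPM in controls and 2.22 to 3.86 CPM after puberulic acid), podocytes (1 of 4 fell, a call lost with total counts) and hepatocytes, a tissue that should be absent (2 of 3 fell, sum 62.1 to 183.2 CPM and 16.8 to 29.4 CPM). Most of that sum was Ttr, or transthyretin, which fell from 114.8 ± 45.6 CPM to 17.5 ± 3.80 CPM. Alb, or albumin, at 5.30 CPM and 3.52 CPM (adjusted p = 0.0344), lost its call with total counts (0.771), without a filter (0.0566) and with the replicate number as a block (0.0766). Apoa1, at 0.842 CPM and 1.14 CPM, was not called (adjusted p = 0.194), but was called higher with total counts (0.94, adjusted p = 0.00996).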

How the data were processed

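Poly(A) RNA of whole mouse kidney was sequenced with a strand-keeping kit, per the labels' protocols. The authors deposited 1 table of estimated counts per gene. Per the submitters' processing notes, fastp 0.22.0, FastQC 0.12.1, MultiQC 1.28, Salmon 1.10.3 and DESeq2 were used with build GRCm39. Columns were matched to samples by name. The 10 supplement columns, whose names do not show the lot, were not used, so comparisons between lots were not analysed here.

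Counts were rounded, and the 5 control and 5 puberulic acid libraries were fitted with edgeR 4.0.16 (R 4.3.3): filterByExpr, TMM scaling, quasi-likelihood test, Benjamini-Hochberg adjustment over 16266 genes, calls at an adjusted p under 0.05. CPM use TMM-scaled totals. Genes with a symbol numbered 51344 and held 99.29% of the counts. A floor of 3 counts per library stands for 0 and, like all depth limits here, covers counting error only. The fit was tested on simulated counts.

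The 8 connexins and all gene lists, the 14 marker lists included, were chosen with earlier results of these data known. Some genes of these lists and some neighbours are not reported here. Named genes were the other connexins and pannexins, up to 4 called partners by fold change in each direction and those not called, the 2 most abundant markers per list, the 2 most similar genes per connexin, and adjacent genes. Other genes were named after their values were seen: Cdh1 and Nedd4, the squamous markers, Apoa1, Efnb2, Sox17, Cldn5 and Rgs5. Neighbour order came from RefSeq for GRCm38.

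Alternatives were RLE factors (DESeq2's size factors within edgeR), total counts, the unfiltered table, only genes reaching 1 CPM in 5 or more libraries, library sizes without mitochondrial and the 10 most abundant genes, a replicate block, DESeq2 1.42.0, leaving out each library, and a likeness pseudocount of 0.1 CPM.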

Additional observations from a re-analysis of the deposited data

Results flagged for a closer look

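Kidneys far from the other 4 of their group were searched for among connexins, pannexins and partner genes. The gap of the outermost kidney to its nearest neighbour, divided by the range of the group, exceeded 0.71 in 5 of 48 groups of 5, where chance gives about 1 in 20. Gjb1 was lowest in control replicate 1, at 44.8 CPM against 57.5 CPM in the next control (gap 0.815 of the range), and highest in puberulic acid replicate 1, at 27.8 CPM against 18 CPM (0.899). Gja3 was highest in control replicate 2, at 5.06 CPM against 0.714 CPM (0.889), and in puberulic acid replicate 2, at 1.70 CPM against 0.483 CPM (0.735). Cav1, or caveolin-1, was highest in control replicate 2, at 44.0 CPM against 36.3 CPM (0.782).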

How the results depend on the processing

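Scaling by total counts in place of TMM gave 9179 genes higher and 2526 lower, where TMM gave 5564 and 5058. The number of all genes called was 10104 to 11108 when 1 kidney was left out and 9960 to 12163 under the other settings. Of the partner genes, 10 to 14 were called higher, and 0 to 1 were called lower when 1 kidney was left out: Cav1, without puberulic acid replicate 3 (log2 fold change -0.47, adjusted p = 0.00278 in edgeR). With total counts the sign turned and a call was gained for Ctnnb1 (0.44), Itgb5 (0.36) and Hsf2 (0.37), and the sign turned with no call under either scaling for Cav1, Plvap, Emcn, Marveld1, Zfp366, Clec1a, Podxl and Akr1b7. The listed Gja4 and Gja5 also turned, but stayed below the median of all genes, which moved alike. Without puberulic acid replicate 3 the urothelial Upk1b turned and was called lower (adjusted p = 0.0451 in edgeR); with the replicate block it was -0.61, not called. It ranged from -1.46 to 1.00 over the fits that leave out 1 kidney. Of 119 log2 fold changes of the listed connexins under alternatives, 112 moved by less than 1 SD between kidneys and 7 by more: 6 of them with total counts, as Gjb1 (-1.01) and Gjb2 (-1.26), and Gjb5 without control replicate 1. Leaving out 1 kidney gave -1.70 to -1.50 for Gjb1, -1.83 to -1.70 for Gjb2, 0.74 to 1.18 for Gja1, -0.35 to 0.00029 for Gja4 (the highest without control replicate 5), 4.82 to 5.96 for Gjb5 (the highest without control replicate 1), -0.69 to -0.20 for Gja5 and 0.46 to 0.60 for Gjc1. Without puberulic acid replicate 1, or with total counts, 3 listed connexins lay above all controls, Gja1 joining, and without puberulic acid replicate 3, 3 lay below by their listed values. The added gene was Gjb6, whose remaining puberulic acid libraries held 0 counts, which at this depth allow levels within the control range. Same-numbered samples did not deviate together (correlations -0.172 to 0.039), and with the replicate number as a block 10325 genes were called, 10111 of them shared. Depth limits Gjb5 and Gjb6, whose control or treated libraries held few counts. The causes of these shifts were not tested.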
